A study of Homo sapiens with 6 samples.

Results

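The genes described here encode the subunits, activators, inhibitor and dedicated assembly chaperones of the proteasome, measured in the human acute myeloid leukaemia line OCI-AML2 with and without MRT199665. They were chosen by symbol, taking every gene of the deposited count table whose name starts with PSMA, PSMB, PSMC, PSMD, PSME, PSMF or PSMG followed by a number. Of 82 such symbols, 30 pseudogenes and 3 antisense genes were left out, which kept 49 of the 55765 genes in the table. PSMB8, PSMB9, PSMB10, PSME1 and PSME2, the genes of the immunoproteasome and its activator, were set against the other 44. PSMC3IP meets the rule by its letters but encodes a partner of PSMC3 that acts in meiotic recombination and is no proteasome subunit, so its value is given apart. A total of 46 members passed the filter on low counts, 4 of them from the immunoproteasome set.

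The comparison was between 3 libraries of cells treated for 48 h with 100 nM MRT199665, which the labels call a MARK inhibitor, and 3 libraries of cells given vehicle control for the same time. All came from OCI-AML2 cultures described in the labels as single-cell clones, without saying how many clones there were or whether replicates were grown apart. The p-values therefore weigh a difference against the spread of these 6 libraries, and that spread may be only technical. The libraries were made with a kit that reads the 3′ ends of messenger RNAs. Values per library are given in the order of replicates 1, 2 and 3.

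The proteasome is the protease that degrades ubiquitin-tagged proteins in the cytosol and nucleus. Its barrel, the 20S core, has outer rings of alpha subunits (PSMA genes) and inner rings of beta subunits (PSMB genes), and only PSMB5, PSMB6 and PSMB7 among the standard beta subunits cut peptides. The 19S cap recognises, unfolds and feeds in the substrate through its ring of ATPases (PSMC genes) and its non-ATPase subunits (PSMD genes). Blood cells, and other cells exposed to interferon gamma, also build the immunoproteasome, in which PSMB8, PSMB9 and PSMB10 take the places of PSMB5, PSMB6 and PSMB7, and in which peptides suited to display on major histocompatibility complex class I molecules are made. PSME1 and PSME2 form the PA28 activator that binds the same core. Standard subunit genes are known to be driven together by the factor NRF1 (the NFE2L1 gene) when proteasome activity is short, and the immunoproteasome genes by interferon regulatory factors.

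The promoters of the contrasted genes were compared by their letters. RefSeq promoter windows (GRCh38.p14), from 250 bases before to 50 bases after an annotated start, were matched by symbol for 43 of the 49 members. The letters GAAA, 2 bases of any kind and GAAA again, the core of the element bound by interferon regulatory factors, were searched on both strands. They were present for 4 of the 5 immunoproteasome genes, for 3 of 38 other members (PSMA4, PSMB4 and PSMG4) and for 4.38% of the 27305 genes with a window. The stretches below run from 85 bases before to 15 bases after the start, 5′ to 3′ on the gene's strand, and are shown because most of the first set and few of the second held a match. Capitals mark the match, which starts with TTTC where it lies on the opposite strand. PSMB8 is shown at the second of its annotated starts, the one with a match. PSMB9 had no match in its window, and PSMG4 is shown as an assembly chaperone gene with the same letters.
PSMB8: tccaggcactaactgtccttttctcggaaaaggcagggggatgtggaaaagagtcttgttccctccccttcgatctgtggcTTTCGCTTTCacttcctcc
PSMB10: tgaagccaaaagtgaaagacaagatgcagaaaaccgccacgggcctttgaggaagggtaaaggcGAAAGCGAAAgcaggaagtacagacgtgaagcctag
PSME1: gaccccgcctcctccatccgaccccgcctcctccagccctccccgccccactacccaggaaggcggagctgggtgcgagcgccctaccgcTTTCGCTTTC
PSME2: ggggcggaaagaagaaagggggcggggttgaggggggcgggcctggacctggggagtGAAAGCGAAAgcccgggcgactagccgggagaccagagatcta
PSMB9: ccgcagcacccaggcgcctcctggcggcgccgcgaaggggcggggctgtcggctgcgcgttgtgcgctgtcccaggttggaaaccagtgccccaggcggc
PSMG4: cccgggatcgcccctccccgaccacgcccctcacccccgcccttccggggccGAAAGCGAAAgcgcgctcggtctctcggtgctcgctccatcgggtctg
The PSMB8 stretch lies at chr6:32844033-32844132 on the minus strand and that of PSMB10 at chr16:67936836-67936935 on the minus strand. That of PSME1 lies at chr14:24136109-24136208 on the plus strand and that of PSME2 at chr14:24146596-24146695 on the minus strand. Those of PSMB9 and PSMG4 lie at chr6:32854107-32854206 and chr6:3258862-3258961, both on the plus strand. The letters TGANNNNGC, the core of the element bound by NRF1 and NRF2, were in the windows of 24 of 38 other members and 4 of 5 immunoproteasome genes, against 47.1% of all genes. GGG followed after 5 bases of any kind by CC, a loose form of the site bound by NF-kB, was present for 30 of 38 and 2 of 5 (61.7% of all genes). The motifs were searched separately, so matches can overlap, and a match is a description of the letters only.

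Total counts ranged from 5871097, in MRT199665 replicate 2, to 14308650. A count of 3, the limit that a count of 0 allows for counting error alone, stood for between 0.212 and 0.506 CPM, the usual unit for a gene's counts relative to its library's total, here with totals adjusted by TMM. Together the 49 members held between 0.432% and 0.522% of all counts of a library. On the list of myeloid markers, SPI1, CD33, MPO and LYZ were detected, with CEBPA at 0 in all 6 libraries. PTPRC, also on that list but shared by other leukocytes, stood at 359 to 426 CPM. The 6 marker genes on that list summed to 573 to 629 CPM with MRT199665 and 530 to 543 CPM with vehicle, most of it PTPRC. Of the markers of other cells, erythroid genes were at or near 0, B cell genes summed to between 6.40 and 9.11 CPM with MS4A1 at 0, and epithelial and stromal genes, mostly CDH1, to between 28.5 and 64.2 CPM with KRT18 at 0. T and NK cell genes, with CD2 at 0, summed to 9.87 to 11.1 CPM with MRT199665 and 7.45 to 7.92 CPM with vehicle. Most of that sum was NKG7, at 8.82, 10.6 and 10.3 CPM with MRT199665 and 6.61, 6.76 and 7.31 CPM with vehicle. The part of these marker sums in the results was not tested.

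No proteasome member passed the test between MRT199665 and vehicle. By edgeR's quasi-likelihood test with Benjamini-Hochberg adjustment over all 13053 tested genes, 0 of 46 members had an adjusted p under 0.05, where 1.25% of all tested genes did (0.85% higher and 0.398% lower). DESeq2 called 1 member lower, PSMD14, and limma-voom called none. At an unadjusted p under 0.05, 6 members were lower, against 7.11% of all tested genes, and 0 were higher, against 7.64%. The median log2 fold change was -0.11 over the 4 tested immunoproteasome genes and -0.10 over the 42 other members, against 0.01 over all tested genes. Without MRT199665 replicate 2 the medians were -0.29 and -0.11. Of the 46, 32 (69.6%) had a log2 fold change below 0, against 49.1% of all tested genes. This count depended on single libraries. It was 28 without vehicle replicate 1 and 40 without MRT199665 replicate 2, against 48.8% and 51.2% of all tested genes.

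The intervals show how large a difference these libraries leave room for. The 95% interval of the fold change lay within 1.5-fold in either direction for 30 of 46 members (65.2%), against 37.4% of all tested genes. These were 28 of the 42 other members and, in the immunoproteasome set, PSME1 and PSME2 but not PSMB8 or PSMB9. The 2 shares are not matched for abundance. A mean of at least 10 CPM was reached by 42 of all 46 tested members, but by 7275 of the 13053 tested genes. The most distant bound was that of PSMC2, an ATPase of the 19S base, at 2.01-fold higher.

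**Figure D1:**
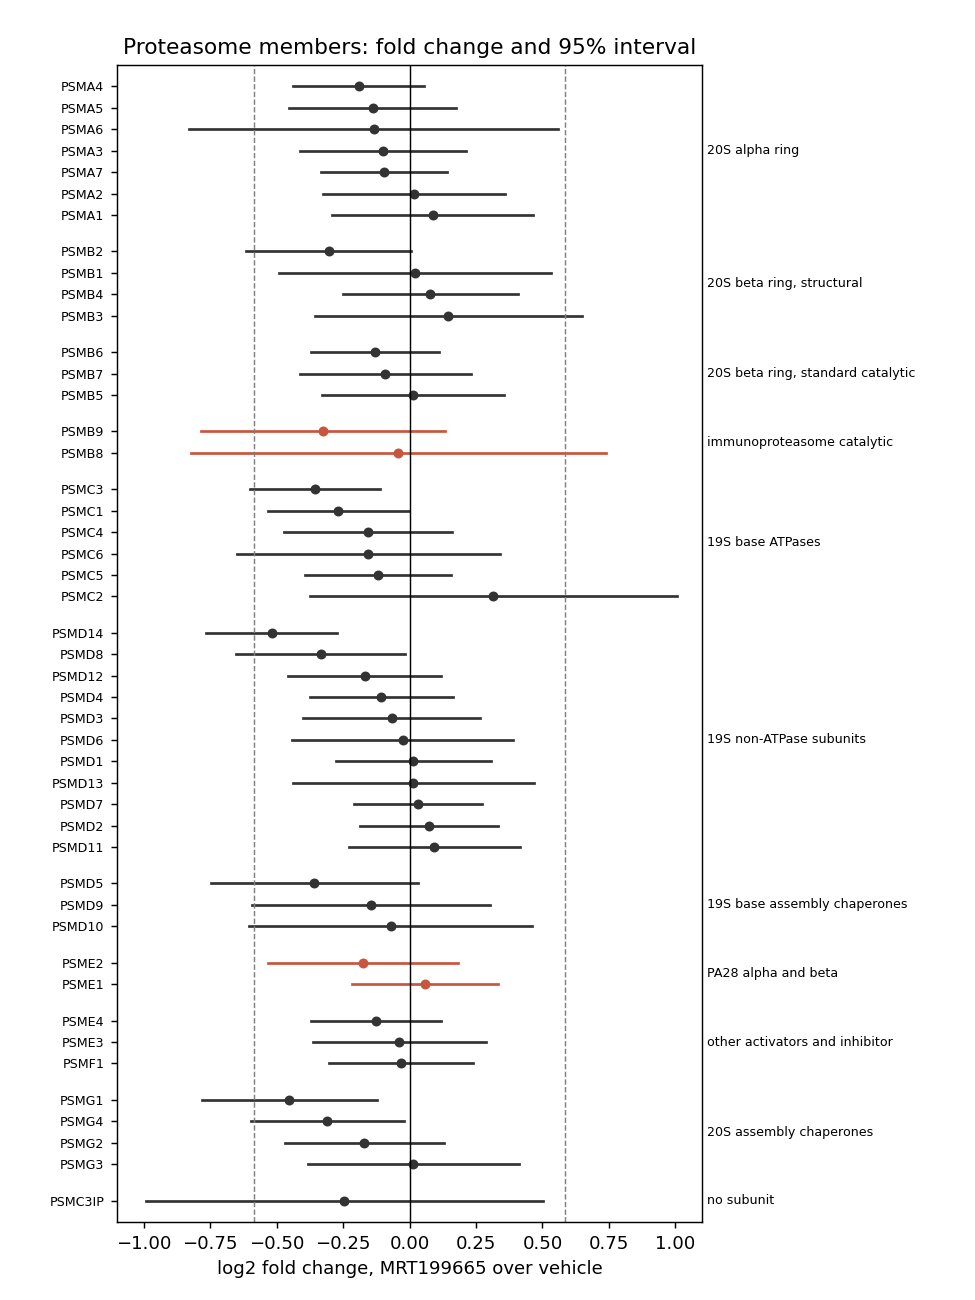
Log2 fold change of MRT199665 over vehicle for the 46 tested members (points) with 95% intervals (lines), grouped by role, with the immunoproteasome genes in red. Dashed lines mark 1.5-fold in either direction; the intervals of 30 members stay between them, and the point furthest to the left is PSMD14 at -0.52.

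Neither tested catalytic subunit of the immunoproteasome passed the test, and for PSMB8 libraries of the same group differed more than the groups did. PSMB8, which carries the chymotrypsin-like activity of the immunoproteasome, stood at 85.3, 46.4 and 63.1 CPM in the vehicle libraries, and at 40.8, 102 and 48.9 CPM in the treated libraries. The highest and the lowest of the 6 values were both from treated libraries, so the groups overlapped. The log2 fold change was -0.04 ± 0.34 (SE, 95% interval -0.82 to 0.74, adjusted p = 0.978, edgeR quasi-likelihood test). Without MRT199665 replicate 2 it was -0.53 (adjusted p = 0.394), and without that library and vehicle replicate 2 together it was -0.73 (adjusted p = 0.125). Its sign turned without MRT199665 replicate 1 (0.19), MRT199665 replicate 3 (0.10) or vehicle replicate 1 (0.20), and it was not called in any of these fits.

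PSMB9, which takes the place of PSMB6, stood at 43.9, 35.0 and 40.4 CPM in the vehicle libraries and at 25.8, 42.8 and 27.5 CPM in the treated libraries. MRT199665 replicates 1 and 3 lay below every vehicle library, while replicate 2 lay among them. The log2 fold change was -0.33 ± 0.20 (SE, 95% interval -0.78 to 0.13, adjusted p = 0.509, edgeR). Without MRT199665 replicate 2 it was -0.58 (adjusted p = 0.151), and without both libraries numbered 2 it was -0.66 (adjusted p = 0.0817). Leaving out MRT199665 replicate 1 gave -0.20 (adjusted p = 0.713, edgeR) and MRT199665 replicate 3 -0.24 (adjusted p = 0.767, edgeR). Leaving out vehicle replicates 1, 2 or 3 gave -0.25, -0.42 and -0.31, and PSMB9 was not called in any of these fits. In GENCODE release 29 the exons of PSMB8 and PSMB9 share 139 bases on opposite strands, and those of PSMB8 share 618 bases with PSMB8-AS1 on the opposite strand. Whether the counting used the strand is not stated, so reads from these shared bases cannot be assigned to 1 gene.

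PSMB10, which takes the place of PSMB7, was close to undetected. It had 3, 2 and 1 counts with vehicle and 7, 4 and 6 with MRT199665, too few for the test. The groups did not overlap in CPM. Summed over libraries there were 17 counts against 6, a ratio per depth of 2.84 with an exact 95% counting interval from 1.07 to 8.81, which leaves out the spread between libraries. In GENCODE release 29, 34.8% of the exon bases of PSMB10 are shared with AC040162.1, a protein-coding gene of the same strand. AC040162.1 had 0 counts in this table. The part of this overlap in the low counts was not tested.

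Neither PA28 subunit passed the test, and the groups overlapped for both. PSME1 stood at 97.9, 118 and 113 CPM in the vehicle libraries and at 107, 124 and 112 CPM in the treated libraries. Its log2 fold change was 0.06 (95% interval -0.22 to 0.33, adjusted p = 0.883, edgeR). PSME2 stood at 58.9, 78.0 and 66.5 CPM with vehicle and at 64.6, 48.9 and 66.2 CPM with MRT199665. MRT199665 replicate 2, which held the highest value of PSME1 and of PSMB8, held the lowest of PSME2. The log2 fold change of PSME2 was -0.17 (95% interval -0.53 to 0.18, adjusted p = 0.667, edgeR).

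**Figure D2:**
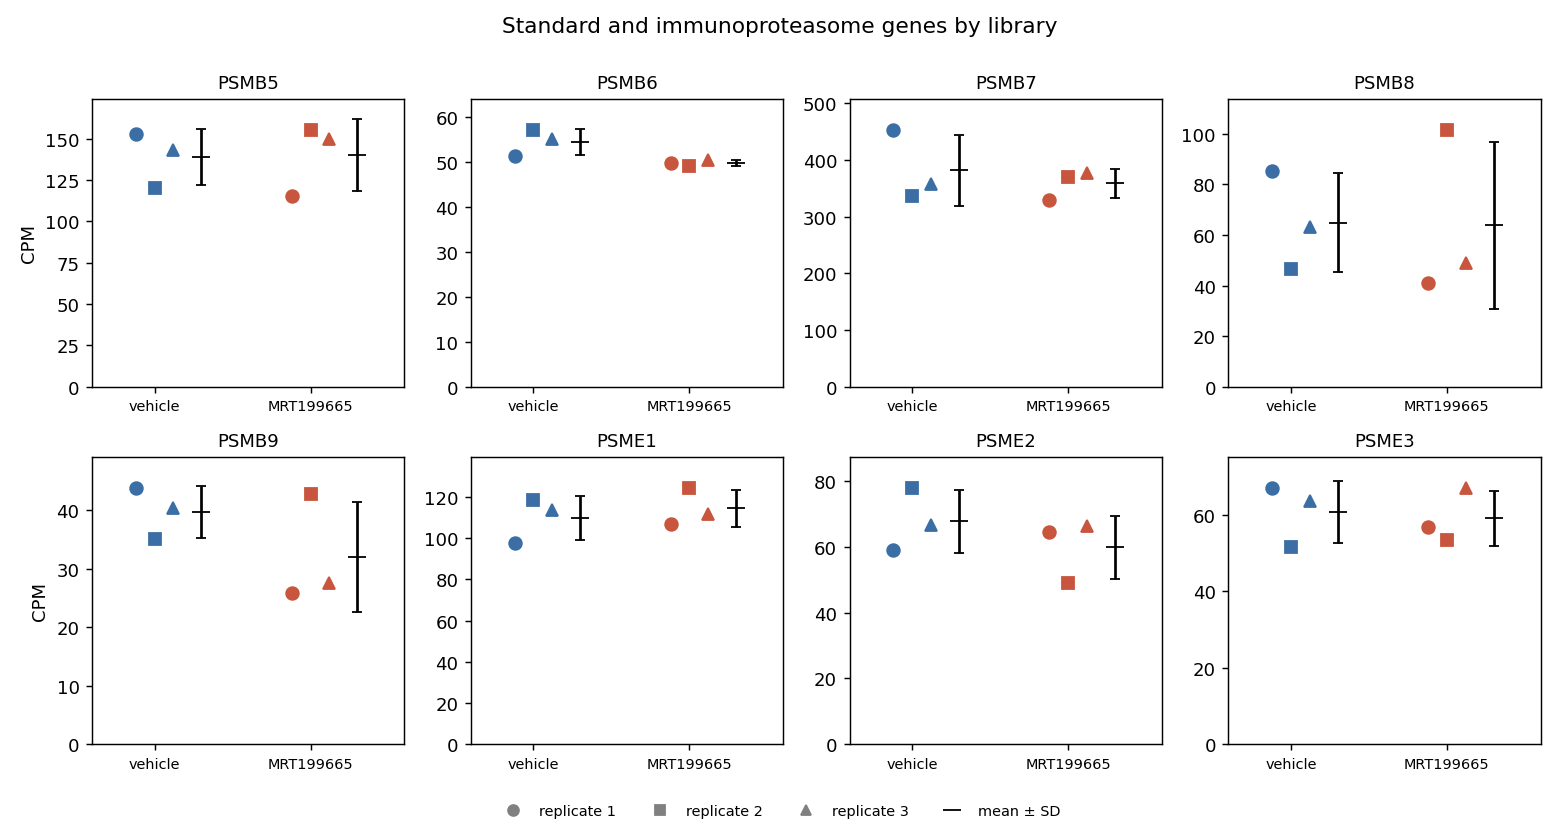
CPM per library of the standard catalytic genes PSMB5 to PSMB7, the immunoproteasome genes PSMB8, PSMB9, PSME1 and PSME2, and PSME3, with vehicle in blue, MRT199665 in red, symbols by replicate number and bars for mean ± SD (n = 3 per group). The 3 treated libraries of PSMB8 spread from 40.8 to 102 CPM, around all vehicle libraries.

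None of the 3 standard catalytic genes passed the test. PSMB5, the chymotrypsin-like subunit that PSMB8 replaces, stood at 153, 120 and 143 CPM in the vehicle libraries and at 115, 155 and 150 CPM in the treated libraries (log2 fold change 0.01, 95% interval -0.33 to 0.35). PSMB6, the caspase-like subunit, stood at 51.2, 57.1 and 55.0 CPM with vehicle and at 49.7, 49.1 and 50.4 CPM with MRT199665. Its groups did not overlap, by a margin of less than 1 CPM, and its log2 fold change was -0.13 (95% interval -0.37 to 0.11, adjusted p = 0.627, edgeR). PSMB7, the trypsin-like subunit, stood at 453, 336 and 357 CPM with vehicle and at 330, 370 and 376 CPM with MRT199665 (log2 fold change -0.09, 95% interval -0.41 to 0.23). The intervals of all 3 lay within 1.5-fold.

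Ratios within a library need no scaling between libraries and show the balance of immunoproteasome to standard subunit. Reads from 3′ ends are not divided by gene length, so a ratio is compared between libraries and not read as a ratio of molecules. PSMB8 counts were 55.7%, 38.6% and 44.0% of PSMB5 counts in the vehicle libraries, and 35.4%, 65.4% and 32.7% in the treated libraries. The mean log2 ratio was -1.24 ± 0.55 with MRT199665 and -1.13 ± 0.27 with vehicle (SD, n = 3 per group, exact permutation p = 0.7, two-sided). PSMB9 counts were 85.6%, 61.3% and 73.4% of PSMB6 counts with vehicle and 52.0%, 87.3% and 54.6% with MRT199665 (mean log2 ratio -0.67 ± 0.41 against -0.46 ± 0.24, SD, n = 3 per group, exact permutation p = 0.6).

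In both ratios MRT199665 replicates 1 and 3 were below every vehicle library and replicate 2 was above every one. The log2 ratio of PSMB10 to PSMB7 was higher by 1.78 with MRT199665, with no overlap, and rests on the 23 counts of PSMB10 given above. Its exact permutation p was 0.1, the smallest that 3 libraries against 3 allow, and adjusted over the 3 ratios the values were 0.7, 0.7 and 0.3. This design could not reach 0.05.

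**Figure D3:**
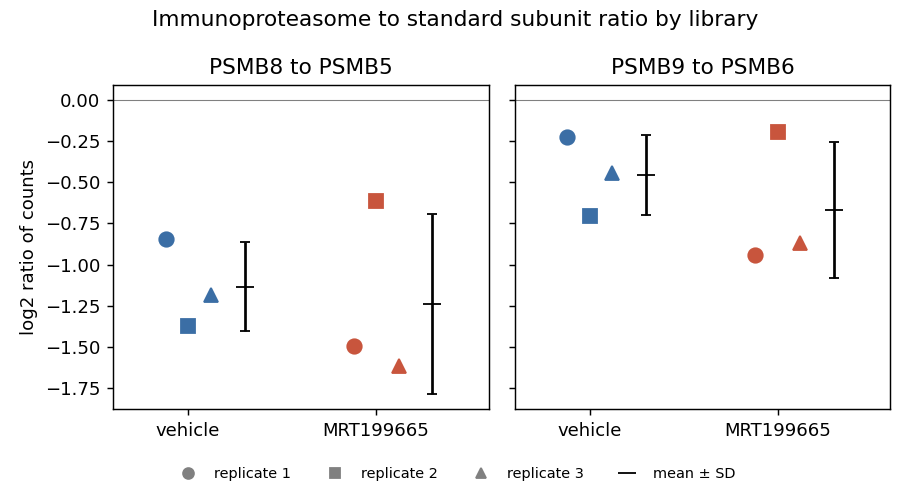
Log2 ratio of the counts of PSMB8 to PSMB5 (left) and PSMB9 to PSMB6 (right) in each library, with vehicle in blue, MRT199665 in red, symbols by replicate number and bars for mean ± SD (n = 3 per group). In each panel MRT199665 replicate 2 is the highest point and the other treated libraries are the lowest.

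In the rest of the 20S core, 0 of 7 tested alpha genes and 0 of 4 structural beta genes were called. The median log2 fold change was -0.10 over the alpha genes, with 6 of 7 intervals within 1.5-fold, and 0.05 over the structural beta genes, with 2 of 4 within it. PSMA4, which forms part of the gate of the core's outer ring, had the lowest alpha value at -0.19, with 173, 179 and 172 CPM in the vehicle libraries and 159, 139 and 160 CPM in the treated libraries. Its groups did not overlap, yet its interval reached from -0.44 to 0.06 (adjusted p = 0.467, edgeR). PSMA1 had the highest at 0.09, resting on MRT199665 replicate 2, where it stood at 76.1 CPM (50.9 and 55.2 CPM in replicates 1 and 3), and it was -0.10 without that library.

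PSMB2 and PSMB3 bounded the structural beta genes, which hold the inner ring together without cutting. PSMB2 stood at 65.4, 84.2 and 77.3 CPM with vehicle and 68.2, 54.6 and 60.5 CPM with MRT199665 (log2 fold change -0.30, adjusted p = 0.352, edgeR). PSMB3 had a log2 fold change of 0.15, again with its highest value, 46.2 CPM, in MRT199665 replicate 2, and of -0.10 without that library. PSMA6, an alpha subunit of every core, had 160 counts over the 6 libraries. In GENCODE release 29, 14.1% of its exon bases are shared with a same-strand gene listed at 0 in this table, AL121594.1, and the part of this overlap was not tested. PSMA8, the alpha subunit of the testis, had 0 counts in all 6 libraries, and PSMB11, the catalytic subunit of the thymus, had 1 count in MRT199665 replicate 2.

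In the 19S cap, 0 of 6 ATPase genes and 0 of 11 non-ATPase genes were called. The non-ATPase subunit PSMD14 had the lowest p and the lowest log2 fold change of all members. It encodes the metalloprotease that removes ubiquitin chains from substrates as they enter. PSMD14 stood at 100.5, 90.2 and 90.2 CPM in the vehicle libraries and at 65.0, 69.0 and 62.2 CPM in the treated libraries. All treated libraries were below all vehicle libraries, by more than the range within either group. The log2 fold change was -0.52 ± 0.11 (SE, 95% interval -0.76 to -0.27), or 1.43-fold lower, with an adjusted p of 0.0669 by edgeR. DESeq2 gave an adjusted p of 0.0127 and edgeR without a low-count filter 0.0308, and across the other alternatives the adjusted p lay between 0.0666 and 0.417.

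PSMC3, an ATPase of the base, stood at 135, 126 and 118 CPM in the vehicle libraries and at 98.8, 94.8 and 103 CPM in the treated libraries. The groups did not overlap, and the log2 fold change was -0.36 ± 0.11 (SE, adjusted p = 0.170, edgeR). PSMC2, a neighbouring ATPase, had the highest value of all members, at 0.32 ± 0.30 (SE, adjusted p = 0.689, edgeR). It rested on MRT199665 replicate 2, at 22.4 CPM where replicates 1 and 3 stood at 10.0 and 11.9 CPM, and was -0.08 without that library. PSMD11, a scaffold subunit, had the highest value of the non-ATPase genes at 0.09, with a 95% interval from -0.23 to 0.41.

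PSMC1 and PSMD8 were the other members of the cap with an unadjusted p under 0.05. PSMC1 stood at 92.8, 95.04 and 78.1 CPM with vehicle and at 76.3, 71.3 and 73.3 CPM with MRT199665 (log2 fold change -0.27, adjusted p = 0.332, edgeR). Its value is uncertain, since 10 of 13 annotated PSMC1 pseudogenes also had counts, which summed to 20.4% of those of PSMC1, and 75.8% of its exon bases in GENCODE release 29 overlap NRDE2 on the opposite strand. PSMD8, a subunit of the lid, stood at 281, 363 and 316 CPM with vehicle and at 267, 221 and 272 CPM with MRT199665 (log2 fold change -0.33, adjusted p = 0.312, edgeR). PSMC1 and PSMD8 were named after their values were seen, as was PSMG4 below.

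The assembly chaperones of the core, PSMG1 to PSMG4, had the lowest median among the role groups with at least 3 tested genes, at -0.24, and 0 of 4 were called. The groups did not overlap for 3 of them, with MRT199665 lower, against 10.8% of all tested genes. For PSMG2 the margin was narrow, with a lowest vehicle value of 22.3 CPM and a highest treated value of 22.1 CPM. PSMG1, which helps to set up the alpha ring, stood at 57.3, 43.1 and 52.5 CPM in the vehicle libraries and at 35.8, 34.2 and 41.5 CPM in the treated libraries. Its log2 fold change was -0.45 ± 0.14 (SE, adjusted p = 0.192, edgeR). PSMG4 stood at 55.2, 51.9 and 47.2 CPM with vehicle and at 41.4, 37.1 and 45.7 CPM with MRT199665 (log2 fold change -0.31, adjusted p = 0.303, edgeR). PSMG3 was at 0.01 (95% interval -0.38 to 0.41). Of the chaperones of the 19S base, PSMD5 had a log2 fold change of -0.36 (adjusted p = 0.382, edgeR) and PSMD10 one of -0.07.

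**Figure D4:**
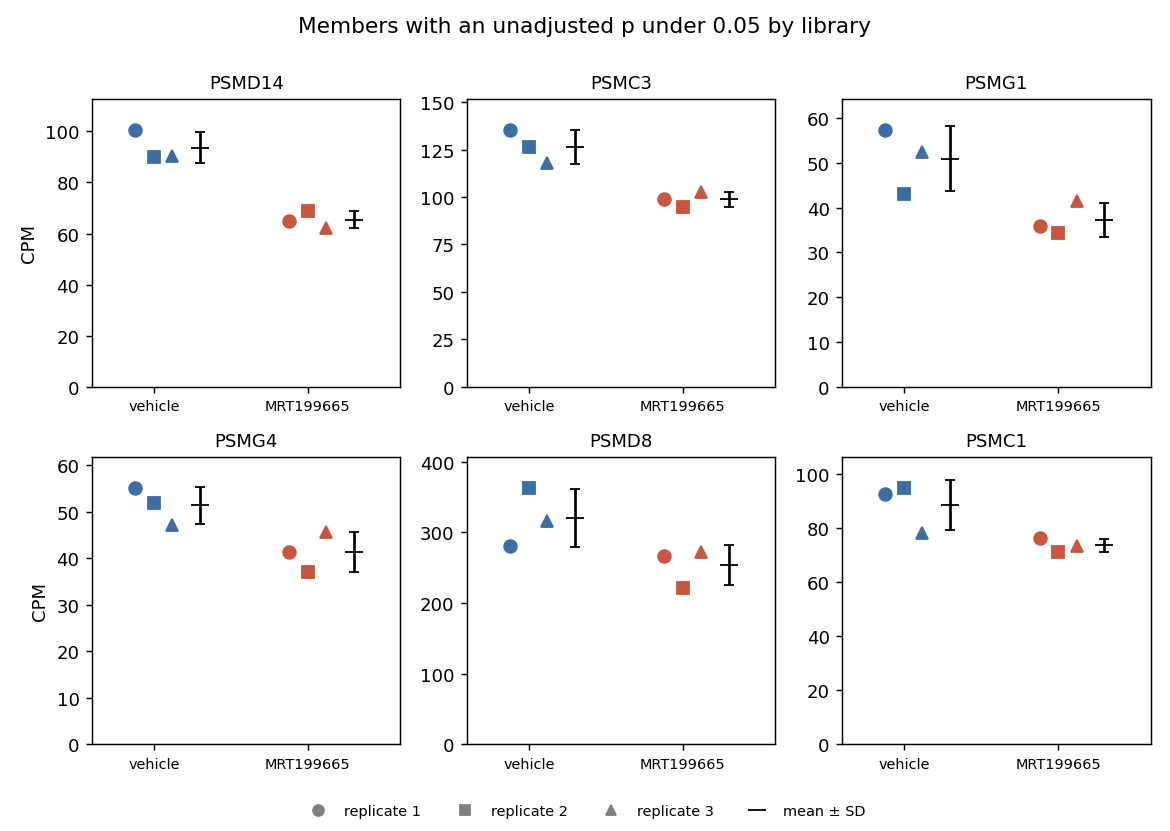
CPM per library of the 6 members with an unadjusted p under 0.05, with vehicle in blue, MRT199665 in red, symbols by replicate number and bars for mean ± SD (n = 3 per group). In each panel the 3 treated libraries lie below the 3 vehicle libraries, with the widest gap for PSMD14, and none of the 6 passed the adjusted threshold by edgeR.

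The remaining activators and the inhibitor all had intervals within 1.5-fold. PSME4, which encodes the nuclear activator PA200, had a log2 fold change of -0.13 (95% interval -0.37 to 0.12) and groups that did not overlap, by less than 0.1 CPM. PSMF1, the inhibitor PI31, had one of -0.03 (95% interval -0.30 to 0.24). PSMC3IP, no subunit, was at -0.24 ± 0.33 on the log2 scale (SE), with means of 1.42 CPM for treated and 1.62 CPM for vehicle libraries.

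Over all tested members, the groups did not overlap for 12 with MRT199665 lower, against 10.8% of all tested genes, and for 0 with MRT199665 higher, against 11.4%. That is 26.1% of the 46. The 12 were spread over the roles, with 3 non-ATPase subunits, 3 core assembly chaperones, 2 ATPases, 2 alpha subunits, PSMB6 and PSME4, and none from the immunoproteasome set. Their log2 fold changes lay between -0.52 and -0.10. With RLE, upper quartile and no scaling the count lower was 10, 9 and 10, against 11.1%, 9.84% and 11.5% of all tested genes.

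Libraries also differed across the members within each group. Vehicle replicate 1 held the highest value of 19 of the 46 members and MRT199665 replicate 2 the lowest of 15, while the latter also held the highest of 9. The median deviation of a member's log2 CPM from its own mean was 0.13 in vehicle replicate 1, 0.00 in vehicle replicate 2 and 0.05 in vehicle replicate 3, and -0.09, -0.02 and -0.02 in the treated libraries. Members at a mean of at least 10 CPM had a median within-group SD of 0.168 on the log2 scale, against 0.174 for all 7275 genes at that level. PSMB8 had the largest within-group SD of the members, 0.58, followed by PSMC2 at 0.47 and PSMB1 at 0.36.

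The libraries also stood apart on a component on which the 2 groups overlapped. On the first principal component of all tested genes, which held 46.8% of the variance, the treated libraries were at -10.4, 48.4 and 6.23 and the vehicle libraries at 10.6, -36.8 and -18.0. MRT199665 replicate 2, with the highest PSMB8 value and the fewest counts, was furthest to 1 side, and vehicle replicate 2 to the other. The order of PSMB8 followed it only in part, since the lowest PSMB8 value was in MRT199665 replicate 1. The part of this component and of depth in the PSMB8 values was not tested.

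**Figure D5:**
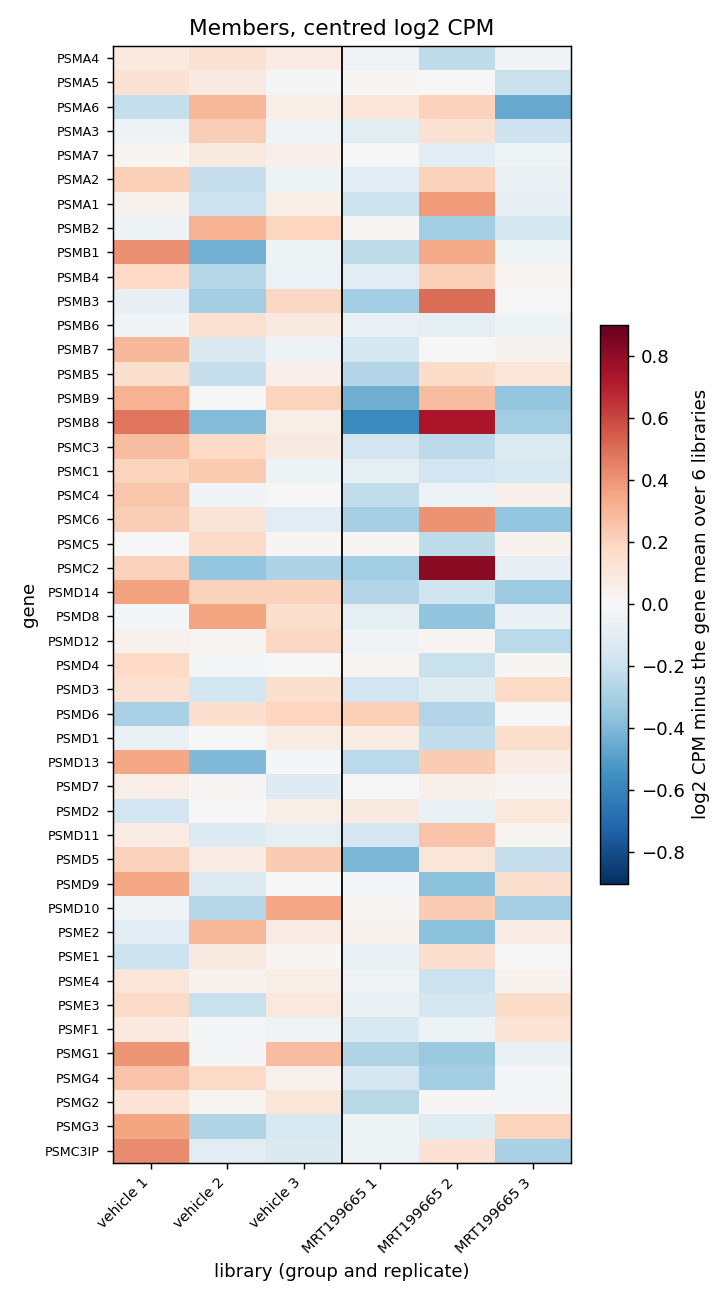
Log2 CPM of each of the 46 tested members (rows, ordered by role) in each library (columns), minus the gene's mean over the 6 libraries; red is above and blue below that mean. PSMB8, PSMC2, PSMB3 and PSMB1 are high in MRT199665 replicate 2 and low in both MRT199665 replicate 1 and vehicle replicate 2. PSMD14 and PSMC3 are low in all 3 treated libraries.

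Genes that act with the proteasome were read from fixed lists by the same test. Of 16 proteasome-associated genes, 0 were called in either direction (median log2 fold change -0.16). RAD23B, a shuttle that brings ubiquitinated proteins to the cap, had a log2 fold change of -0.26 (adjusted p = 0.405, edgeR), without overlap between the groups. POMP, the chaperone that completes the core and is needed for the immunoproteasome, was at -0.11 (adjusted p = 0.701, edgeR). Of 9 genes of ubiquitin supply and unfolding 0 were called, the lowest p being those of NPLOC4 (log2 fold change 0.43) and the ubiquitin-activating enzyme gene UBA6 (-0.32).

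Of the genes that control the standard subunits, 0 of 6 tested were called. NFE2L1 had a log2 fold change of 0.10 (adjusted p = 0.741, edgeR), NGLY1, the deglycosylase that NRF1 needs, one of -0.27, and MAFF, a partner of NRF factors, one of -0.58 (adjusted p = 0.312, edgeR) with values from 1.91 to 3.66 CPM.

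In the interferon gamma route that drives immunoproteasome genes, 1 of 12 tested genes was called, higher, and 0 lower. This was CIITA, the regulator of class II genes, with 8.12, 7.96 and 7.62 CPM in the vehicle libraries and 14.9, 14.3 and 16.1 CPM in the treated libraries (log2 fold change 0.94, adjusted p = 0.0162, edgeR). Its call ended with the replicate number as a block (adjusted p = 0.217) and without MRT199665 replicate 1 (0.0711) or 3 (0.135) or vehicle replicate 2 (0.0587) or 3 (0.127). IRF1, the factor known to activate PSMB8 and PSMB9, stood at 29.9, 32.4 and 25.7 CPM with vehicle and 23.7, 16.9 and 19.7 CPM with MRT199665, without overlap (log2 fold change -0.54, adjusted p = 0.170, edgeR). NLRC5, the regulator of class I genes, had a log2 fold change of -0.40 (adjusted p = 0.239, edgeR), also without overlap. IRF9, another interferon regulatory factor, had one of 0.66 (adjusted p = 0.411, edgeR), higher without overlap with a mean of 1.66 CPM in treated and 1.04 CPM in vehicle libraries. NLRC5 and IRF9 were named after their values were seen. In all, 7 of the 12 had a log2 fold change above 0, and the groups did not overlap for 2 genes in each direction. Over all tested genes, 0.85% were called higher and 0.398% lower, and 11.4% were higher and 10.8% lower without overlap.

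Of 13 tested genes of class I presentation, 0 were called, the median log2 fold change was 0.05 and 8 had a value above 0. TAP2, a subunit of the pump that carries proteasome products into the endoplasmic reticulum and a close neighbour of PSMB8 and PSMB9 on chromosome 6, had the largest difference. It stood at 49.7, 36.0 and 33.3 CPM in the vehicle libraries and at 18.0, 16.9 and 24.0 CPM in the treated libraries, with no overlap. The log2 fold change was -1.01 with an adjusted p of 0.0553 by edgeR. It was called by DESeq2 (adjusted p = 0.00118) and by edgeR without a low-count filter (1.01e-06). TAP2 was not called in the other alternatives. There its adjusted p ran from 0.0507 (edgeR, library totals only) to 0.329 (edgeR, replicate block), with 0.0561 by limma-voom. Its partner TAP1, whose start lies beside that of PSMB9 on the opposite strand, was at -0.22 (adjusted p = 0.673, edgeR), and HLA-E at -0.33 (adjusted p = 0.237, edgeR). TAPBP, which links the pump to class I molecules and was named after its value was seen, was higher without overlap, at 0.24 on the log2 scale (adjusted p = 0.457, edgeR).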

How the data were processed

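Gene counts from 6 libraries were used, 3 per group, with groups and replicate numbers from the labels. The authors deposited unnormalized counts, whole numbers listed by gene symbol. The build hg19 and the tools HTSeq 0.6.1, STAR 2.4 and DESeq2 are named, per the submitters' processing notes. Annotation, strand setting and read filters were not given in the sources used here. Members and gene lists were chosen with earlier results of these data known.

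Genes were filtered with edgeR's filterByExpr (minimum count 10, minimum total 15), scaled by TMM and tested with glmQLFit and glmQLFTest (edgeR 4.0.16, R 4.3.3), with group as the only term, Benjamini-Hochberg adjustment over all 13053 tested genes and a two-sided threshold of 0.05. The SE is the log2 fold change over the square root of F, and 95% intervals use the t quantile at the fit's degrees of freedom. The procedure was tested on simulated data. Named genes were the contrasted members, their standard counterparts, any called member, the highest, lowest and lowest-p member of each role group, untested members, the called genes of each pathway list (or the 2 with the lowest p where none was called), and TAP1, TAP2, NFE2L1, IRF1 and POMP. Some genes that this rule names, and 1 motif, are not reported here. PSMC1, PSMD8, PSMG4, PSMA6, PSMB1, NLRC5, IRF9 and TAPBP were named after their values were seen. The alternatives were RLE, upper quartile and no scaling, other filters, DESeq2 1.42.0, limma-voom 3.58.1, the replicate block and leaving out libraries. No libraries of a group agreed within sampling noise (chi-square per degree of freedom at least 8.59). Exon overlaps and promoters come from GENCODE release 29 and RefSeq on GRCh38, and no position was carried over to hg19.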

Additional observations from a re-analysis of the deposited data

How the results depend on the processing

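By scaling, filter or tool, member calls differed only through PSMD14, which was called lower by DESeq2 and by edgeR without a low-count filter (1 member each); no member was called higher in any alternative or when any library was left out. All genes called higher and lower came to 373 and 271 without a low-count filter, to 217 and 146 by DESeq2 and to 7 and 5 with the replicate block. Leaving out 1 library gave 29 to 78 higher and 20 to 55 lower genes. With the replicate block the members' counts stayed at 0, and the adjusted p of PSMD14 was 0.417. Same-numbered libraries did not deviate together (correlation of deviations -0.55, -0.47 and 0.02 for replicates 1, 2 and 3). Among differently numbered libraries, the correlation was 0.53 for MRT199665 replicate 1 with vehicle replicate 2. It was 0.48 for MRT199665 replicate 2 with vehicle replicate 1, and between -0.10 and 0.12 for the rest. The labels do not say whether same-numbered libraries were handled together, and these correlations, from 3 libraries per group, cannot settle it. The median log2 fold change of the immunoproteasome genes lay between -0.29 and -0.0482 when 1 library was left out, with the lowest without MRT199665 replicate 2. Without both libraries numbered 2 it was -0.31, and that of the other members -0.16. The non-overlap counts, recomputed as a choice made after seeing the data, were 13 to 15 lower and 0 to 1 higher without 1 library, where 13.3% to 18.6% of all tested genes were lower and 14.04% to 18.2% higher without overlap.

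Of 41 named genes, 15 changed sign in at least 1 alternative, none of them called. Without 1 library, log2 fold changes ranged from -0.53 to 0.20 for PSMB8, -0.0216 to 0.10 for PSME1, -0.0924 to 0.13 for PSMB5, -0.19 to 0.0488 for PSMB7, -0.10 to 0.20 for PSMA1, -0.0951 to 0.32 for PSMB3, -0.0763 to 0.53 for PSMC2, -0.369 to 0.0283 for PSMC3IP, -0.0159 to 0.18 for PSMD11, -0.222 to 0.12 for PSMD10, -0.12 to 0.0260 for PSMF1, -0.12 to 0.22 for PSMG3 and -0.29 to 0.0925 for PSMA6. The log2 ratio difference of PSMB8 to PSMB5 ranged from -0.421 to 0.0783. Without both libraries numbered 2 the values were 0.0571 for PSME2, -0.16 for PSMB5, -0.18 for PSMA1, -0.21 for PSMB3, -0.19 for PSMC2, -0.0604 for PSMD11, -0.0500 for PSMG3 and 0.0477 for TAP1. With library totals only PSMB5 was at -0.00472 and PSMG3 at -0.00269, and without a low-count filter they were at -0.0115 and -0.00776. The cause of these changes was not tested. PSMA8, PSMB11 and PSMB10 had too few counts for the test, and for 16 members the interval reached past 1.5-fold, so a difference of that size could lie within it.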
